A study of Mus musculus with 8 samples.

Results

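The comparison is of hearts from 4-week-old mice with a conditional gene deletion against hearts of wild-type littermates. It rests on 4 of the 8 arrays of the study. They are 2 hearts of knock-out (KO) females and 2 hearts of wild-type (WT) females, chosen by the age and genotype that the labels give. The other 4 arrays are the same genotypes at 10 weeks of age, 2 hearts each, and they entered the fit for their share of the spread and are set beside the 4-week values at the end. In KO mice the deletion is driven by MCK, the muscle creatine kinase promoter, which is active in striated muscle, so skeletal muscle carries the deletion as well as the heart and non-muscle cells of the heart keep the gene. The mice of an age were littermates, and each array holds the RNA of a separate mouse. WT mice share the age, sex and litter of the KO mice, and the labels name no drug or other treatment.

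Striated muscle under metabolic strain can answer with the integrated stress response. In this pathway kinases phosphorylate the translation factor eIF2, most protein synthesis slows, and the transcription factor ATF4 is made in larger amounts. ATF4 binds composite C/EBP-ATF elements and raises genes for amino acid synthesis, amino acid import, tRNA charging and folate-linked one-carbon metabolism, and also raises genes such as Trib3 and Chac1 that feed back on the stress. A strained heart also turns on natriuretic peptides, fetal sarcomere genes and, later, genes of the extracellular matrix.

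Promoter sequences of such genes are shown first, because Asns, a known ATF4 target, had the smallest p of the comparison and several further members of this pathway were higher in KO. The 8-letter motif TGATGNAA, a form of the C/EBP-ATF composite element, was searched on both strands in the 250 bases before the annotated start of each gene, in RefSeq promoters of the mouse build GRCm38.p6. It was found in 11 of 61 members of the 5 lists of stress and amino acid genes that had a sequence (18%). By list it was in 5 of 20 stress regulators, 2 of 8 enzymes of asparagine and other amino acids, 3 of 12 synthetases, 1 of 7 transporters and 0 of 14 genes of serine, one-carbon and proline synthesis. Of all 14452 genes tested that had a sequence, 410 held it (2.84%), and 1134 of all 32851 annotated start sites did (3.45%). The 5 lists include known ATF4 targets and were chosen with earlier results of these data known. Their share is thus a description of the lists and not a result about these hearts. The 30-base windows below are those of 5 of the 6 members with the motif and an unadjusted p under 0.05 at 4 weeks. The other member was Aars, with a difference of 0.47 (unadjusted p = 0.0306, limma). The motif stands in capitals, on whichever strand holds it in this reading.

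Asns: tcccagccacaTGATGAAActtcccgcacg
Gars: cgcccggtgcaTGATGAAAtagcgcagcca
Chac1: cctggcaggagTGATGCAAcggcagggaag
Atf3: cgcggacttggTGATGCAAgtgcgagaagg
Fgf21: gcctggacggaTGATGCAAtgggggggtct

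The Asns window lies at chr6:7693214-7693243 and is read from the minus strand, which is the gene's own strand, with the motif 23 to 16 bases before the start. The Gars window, at chr6:55037960-55037989, holds the same 8 letters as Asns, but on the strand opposite to the gene, 30 to 23 bases before the start. The windows of Chac1 (chr2:119351038-119351067), Atf3 (chr1:191183425-191183454) and Fgf21 (chr7:45615611-45615640) share the letters TGATGCAA and hold them opposite to the gene, between 193 and 103 bases before the start. The windows of Nupr1, Vldlr, Got1, Slc7a11 and Tars also held the motif, and these genes had unadjusted p-values from 0.25 to 0.926. On the log2 scale, KO exceeded WT by a median of 0.47 over the 11 members with the motif and of 0.16 over the 50 without it. An unadjusted p under 0.05, in either direction, was found for 6 of 11 and 15 of 50. Among all genes higher in KO with such a p, 10 of 259 promoters held the motif (3.86%), against 8 of 283 among those lower (2.83%). A match describes these letters in this window, and binding was not measured.

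The longer context of the element is given for Asns. The 250 bases before its start, at chr6:7693210-7693459 on the minus strand, hold the motif in capitals close to the 3′ end.

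Asns promoter: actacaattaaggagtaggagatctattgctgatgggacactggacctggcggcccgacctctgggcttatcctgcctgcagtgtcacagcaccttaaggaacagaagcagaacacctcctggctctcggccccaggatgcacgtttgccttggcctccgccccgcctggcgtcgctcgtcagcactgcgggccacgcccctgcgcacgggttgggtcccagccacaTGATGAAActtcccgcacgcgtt

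Levels below are log2 of the deposited intensity of a gene's brightest probe set, and differences are KO minus WT on that scale with the SE from limma. Median array intensities were 34.3 to 35.8 on the linear scale over the 4 arrays, and 2 arrays a group limit the precision. Across all genes the first principal component of the 4 arrays carried 45.7% of the variance and set replicate 1 of KO (21.1) apart from the others (-11.4 to 0.7). The second carried 37.1% and separated KO (-4.1 and -17.3) from WT (12.5 and 9). The median absolute log2 difference between the arrays of a pair was 0.106 in WT and 0.14 in KO. Liver transcripts varied within both genotypes, and Alb, serum albumin, read 8.96 and 10.57 in WT and 6.31 and 11.05 in KO, with an unadjusted p of 0.465. Myl2, the ventricular myosin light chain and a defining marker of the labelled tissue, read 14.31 and 14.31 in WT and 14.26 and 14.31 in KO. These levels lie close to the highest intensity of each array (20252 to 20716 on the linear scale). Normalization makes the arrays alike there, so a difference in Myl2 could hardly show.

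Which genes differed at 4 weeks? Of 18193 genes, 5 rose in KO and 0 fell at an adjusted p under 0.05 (limma, Benjamini-Hochberg), which is 0.0275% and 0% of the genes. The genes that rose were Nmrk2, Asns, Cpxm2, Nppb and Bdh1. At an unadjusted p under 0.05, 325 genes were higher (1.79%) and 354 lower (1.95%), together 3.73% of the genes. The smallest adjusted p among genes that were lower was 0.128. At least 2-fold differences with such a p were found for 27 higher and 6 lower genes, and the median difference over all genes was 0.01. Both KO hearts lay above both WT hearts for 3535 of the 18193 genes and below them for 3176. Pairs without overlap, as given for single genes below, are thus common among all genes.

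**Figure D1:**
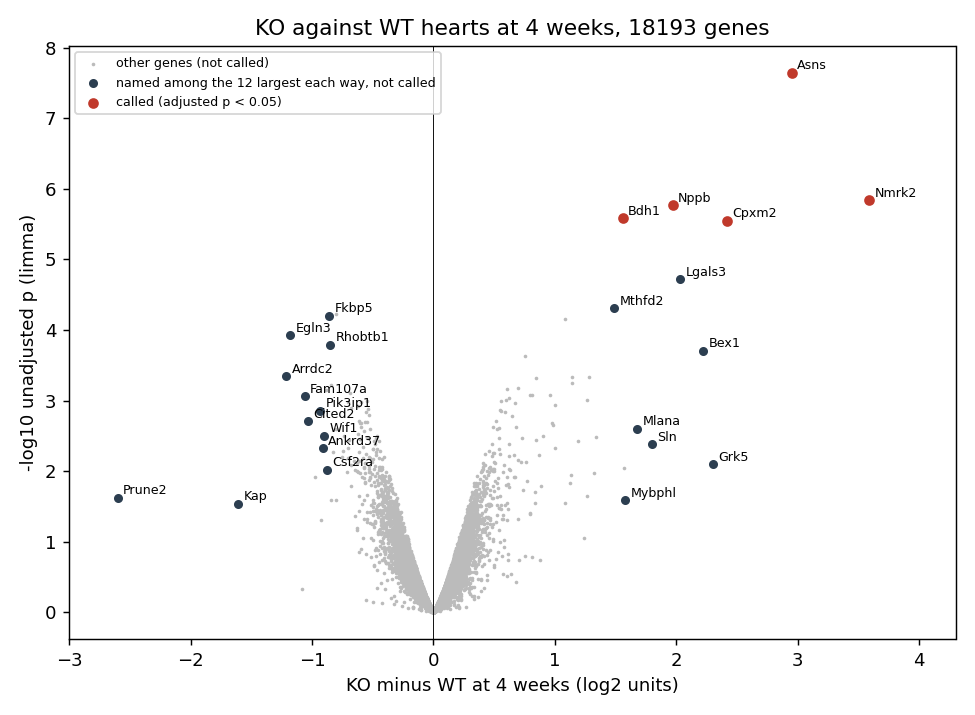
Each point is 1 of 18193 genes, with the KO minus WT log2 difference at 4 weeks on the horizontal axis and the negative log10 of the unadjusted p on the vertical axis. The 5 genes that rose lie at differences of 1.56 to 3.59 on the right, and no gene on the left passed the adjusted threshold.

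Asns, asparagine synthetase, makes asparagine from aspartate and glutamine and is a classical ATF4 target. It read 6.17 and 6.37 in WT and 9.27 and 9.18 in KO. Both KO hearts lay far above both WT hearts, and the arrays of each pair were close to each other. The difference was 2.95 ± 0.17 (SE), or 7.75-fold (adjusted p = 0.000414, limma). A further Asns probe set gave a difference of 3.52.

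Nmrk2, the muscle form of nicotinamide riboside kinase, makes the NAD precursor nicotinamide mononucleotide. Its levels were 6.80 and 7.08 in WT and 11.02 and 10.04 in KO. The KO hearts were unequal, with replicate 1 the higher, and both lay well above WT. This was the largest difference of the comparison, 3.59 ± 0.33, or 12-fold (adjusted p = 0.0103, limma). The call was lost without either WT heart (3.45 with adjusted p = 0.134 without replicate 1, and 3.72 with adjusted p = 0.137 without replicate 2) and without replicate 1 of KO (3.10, adjusted p = 0.0585).

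Bdh1, the mitochondrial enzyme that interconverts the ketone bodies beta-hydroxybutyrate and acetoacetate, read 6.80 and 6.53 in WT and 8.04 and 8.40 in KO. The pairs did not overlap. The rise was 1.56 ± 0.16, or 2.94-fold (adjusted p = 0.0103, limma), and a further probe set gave 1.19. The difference was 1.69 (adjusted p = 0.0699) without replicate 1 of WT, 1.42 (0.281) without replicate 2 of WT and 1.37 (0.127) without replicate 2 of KO, so the call was lost in each case.

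Cpxm2 belongs to the carboxypeptidases and is secreted. It read 4.17 and 5.0 in WT and 7.01 and 7.0 in KO. The WT hearts differed from each other more than the KO hearts did, and the gene was dim in WT. It rose by 2.42 ± 0.24, or 5.34-fold (adjusted p = 0.0103, limma). Its other probe set gave 0.30, and the mean of both gave 1.36 with an adjusted p of 0.0745. The call was also lost without replicate 1 of KO (2.41, adjusted p = 0.149) or replicate 2 of KO (2.42, adjusted p = 0.186).

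Nppb encodes brain natriuretic peptide, a hormone that cardiomyocytes release on stretch. It read 9.96 and 10.55 in WT and 12.30 and 12.15 in KO, with both KO hearts above both WT hearts. The rise was 1.97 ± 0.19, or 3.92-fold (adjusted p = 0.0103, limma). The adjusted p was 0.149 without replicate 1 of KO and 0.112 without replicate 2 of KO, at differences of 1.89 and 2.05.

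**Figure D2:**
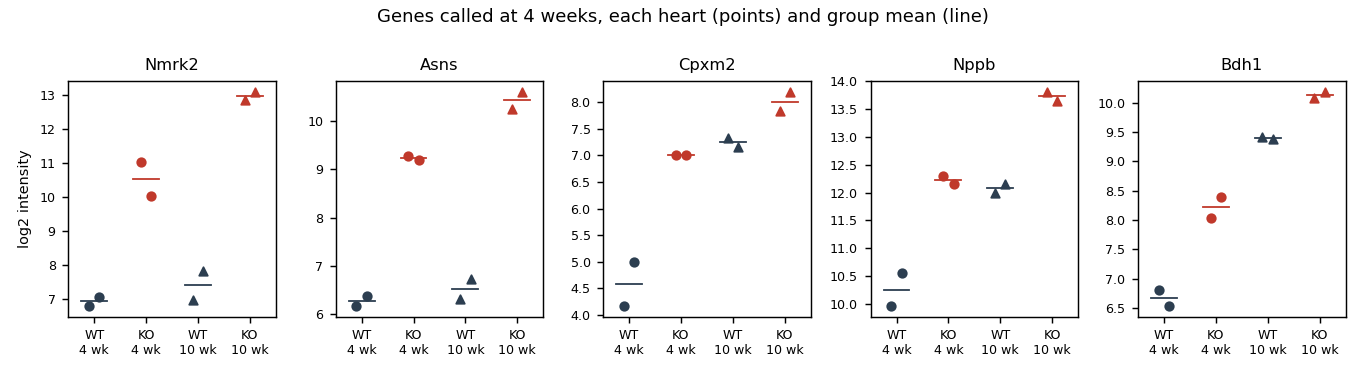
Log2 intensity of the 5 genes that rose at 4 weeks, per heart, with circles for 4-week and triangles for 10-week hearts, WT dark, KO red, and a line at each group's mean. At 4 weeks both KO circles lie above both WT circles for every gene, with Nmrk2 at 6.80 and 7.08 in WT and 11.02 and 10.04 in KO.

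Because Nppb is also made in the atria, and because a heart sample can hold more or less atrium, the atrial markers are given beside these results. Of 7 measured markers of atrial cardiomyocytes, 6 were higher in KO with an unadjusted p under 0.05, beside 1.79% of all genes. None passed the adjusted test, and the median difference was 1.27 against 0.01 over all genes. Sln, the sarcolipin regulator of the calcium pump, read 8.72 and 9.63 in WT and 10.14 and 11.80 in KO. Myl7, the atrial myosin light chain, read 10.57 and 11.40 in WT and 11.54 and 12.97 in KO. For both genes replicate 2 of KO was the highest heart and replicate 1 of WT the lowest, and replicate 1 of KO stood close to replicate 2 of WT for Myl7.

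The summed linear intensity of the 7 atrial markers was 6552 and 9577 in WT and 13500 and 28643 in KO, so the groups did not overlap. This sum includes Nppa, a bright gene that is also on the hypertrophy list. On the log2 scale Nppa read 11.82 and 12.11 in WT and 12.86 and 13.63 in KO. That of the 5 ventricular markers, which include Myl2 near the top of the scale, was 50638 and 51905 in WT and 49896 and 49210 in KO. Without replicate 1 of WT or without replicate 2 of KO, 2 of the 7 atrial markers had an unadjusted p under 0.05 (medians 0.86 and 0.60). In tissue RNA a larger share of atrial cells and more of these transcripts per cell cannot be told apart. Tbx5, which atrial and other heart cells express, differed by 0.04. Of the ventricular markers 1 of 5 was lower with an unadjusted p under 0.05 (Hey2, -0.40 ± 0.15), beside 1.95% of all genes.

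**Figure D3:**
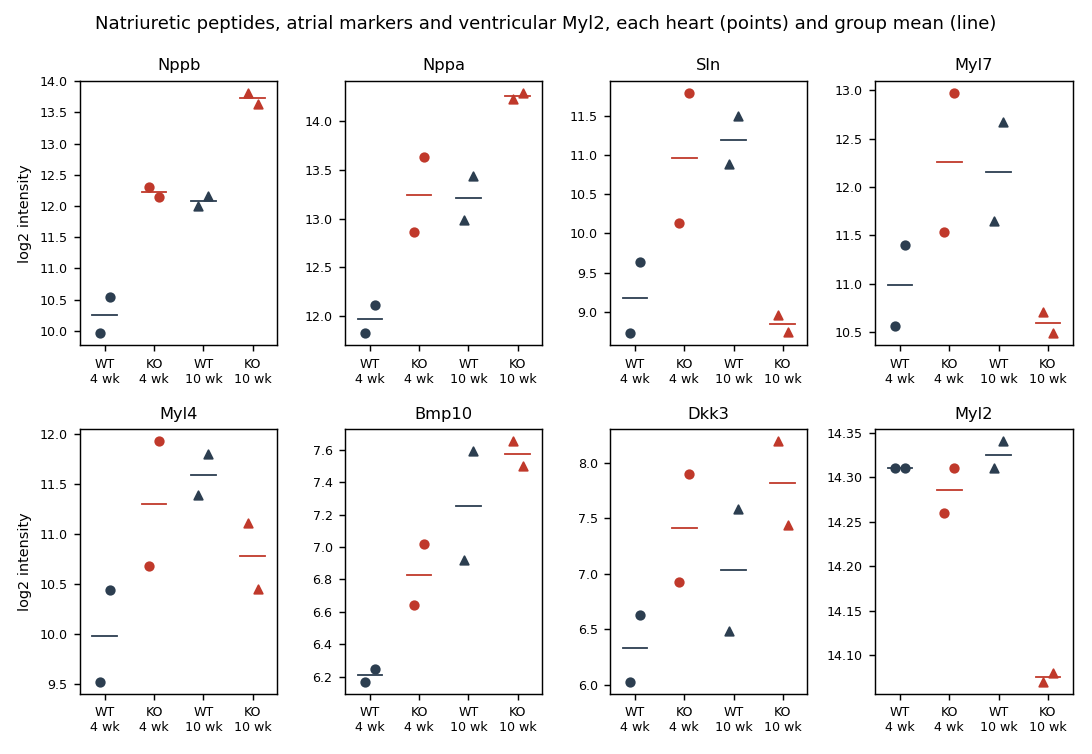
Log2 intensity per heart of the natriuretic peptides Nppb and Nppa, 5 further atrial markers and the ventricular Myl2, each panel on its own scale, with circles for 4-week and triangles for 10-week hearts, WT dark, KO red, and a line at each mean. Among 4-week hearts the atrial genes other than Nppb run from replicate 1 of WT at the low end to replicate 2 of KO at the high end (Sln 8.72 to 11.80). Nppb is highest in replicate 1 of KO (12.30, with 12.15 in replicate 2). Myl2 lies between 14.26 and 14.31, near the top of the arrays' scale, where a difference could hardly show.

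A score of the atrial markers other than Nppa read -0.91 and -0.36 in WT and -0.13 and 0.90 in KO. With this score as a covariate over the 8 arrays, no gene passed the adjusted test, and the differences of the 5 genes were close to those without it. They were 2.88 for Asns (adjusted p = 0.056), 3.80 for Nmrk2 (0.21), 2.31 for Cpxm2 (0.32), 1.80 for Nppb (0.296) and 1.47 for Bdh1 (0.308), all from limma. Sln, itself a member of the score, differed by 0.37 with it and by 1.80 without it.

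Part of the stress response list was higher in KO. Of 22 measured ATF4 and stress response regulators, 8 were higher in KO with an unadjusted p under 0.05 and 0 were lower, beside 1.79% and 1.95% of all genes, and none passed the adjusted test. The list's median was 0.17. Without replicate 2 of WT or replicate 1 of KO, 6 of the 22 had such a p.

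Trib3, a pseudokinase that restrains ATF4 and AKT signalling, read 5.91 and 5.73 in WT and 7.01 and 6.91 in KO. Both KO hearts were higher, at a difference of 1.14 ± 0.22, or 2.21-fold (adjusted p = 0.487, limma). Atf3, a stress-induced transcription factor, read 6.16 and 5.78 in WT and 7.38 and 6.83 in KO, and its promoter window is printed above. Its pairs did not overlap either, with a difference of 1.14 ± 0.36.

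Ddit3, the transcription factor CHOP, differed by 1.01 ± 0.27 and Chac1, which degrades glutathione, by 0.98 ± 0.23. A further, dimmer Ddit3 probe set gave 0.19. Chac1 read 6.99 and 6.89 in WT and 7.89 and 7.96 in KO, with tight pairs on both sides. Fgf21, a secreted metabolic hormone that stressed muscle can release, read 5.18 and 5.0 in WT and 6.22 and 5.69 in KO. The gap between its groups was smaller, and the difference was 0.87 ± 0.24.

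Atf5, a relative of ATF4 linked to the mitochondrial unfolded protein response, differed by 0.79 ± 0.16. Atf4 itself differed by 0.73 ± 0.19, from 9.25 and 9.33 in WT to 10.20 and 9.84 in KO, and its further probe sets gave 0.77 and 0.13. Sesn2, a stress-induced inhibitor of mTORC1, differed by 0.49 ± 0.15. Transcripts of the kinases that start the pathway stayed near WT levels, and kinase activity was not measured. The differences were 0.12 for Eif2ak4 (GCN2), 0.08 for Eif2ak2 (PKR), -0.01 for Eif2ak3 (PERK) and -0.18 for Eif2ak1 (HRI). Transcripts of the relay proteins Dele1 and Oma1 differed by -0.10 and -0.02.

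Among 16 measured genes of serine, proline and one-carbon units, 4 were higher with an unadjusted p under 0.05 and 1 was lower. The shares of all genes were 1.79% and 1.95%, and the list's median was 0.22. The 4 were Mthfd2, Aldh18a1, Psat1 and Phgdh, and none passed the adjusted test on its brightest probe set. Mthfd2, the mitochondrial methylenetetrahydrofolate dehydrogenase, read 6.35 and 6.16 in WT and 7.87 and 7.62 in KO. Both KO hearts lay above WT by more than the spread of either pair. The difference was 1.49 ± 0.21, or 2.82-fold (adjusted p = 0.128, limma), and a further probe set gave 3.37. Averaged over its probe sets, Mthfd2 differed by 2.43 and passed (adjusted p = 0.0123, limma).

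Aldh18a1, which makes the proline precursor pyrroline-5-carboxylate, read 5.71 and 5.84 in WT and 6.92 and 7.31 in KO. The hearts of each genotype were close together, and the difference was 1.34 ± 0.34. Its 4 further probe sets gave smaller differences, from 0.39 to 0.60. Psat1, the aminotransferase of serine synthesis, read 4.35 and 4.84 in WT and 6.14 and 5.58 in KO, a difference of 1.26 ± 0.27 without overlap.

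Phgdh, the entry enzyme of serine synthesis, read 7.99 and 7.93 in WT and 8.53 and 8.36 in KO, a difference of 0.48 ± 0.13. Its 3 further probe sets, which are dimmer, gave 1.53, 1.49 and 0.35, and averaged over all of them Phgdh differed by 0.96 and passed (adjusted p = 0.0182, limma). In contrast to these synthetic enzymes, Prodh, which breaks proline down, read 8.15 and 7.80 in WT and 7.21 and 7.60 in KO. Its KO hearts were the lower ones, at a difference of -0.57 ± 0.17 (unadjusted p = 0.00915).

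Cytosolic tRNA synthetases load amino acids onto tRNAs. Of 19 measured, 7 had an unadjusted p under 0.05, all of them higher in KO, beside 1.79% of all genes, and the median was 0.30. None passed the adjusted test. Gars, the glycine enzyme, read 8.72 and 8.62 in WT and 9.38 and 9.36 in KO, and Sars, the serine enzyme, 8.72 and 8.73 in WT and 9.41 and 9.24 in KO. In both the KO hearts stood clear of WT, with differences of 0.70 ± 0.14 and 0.60 ± 0.12.

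Yars, Lars and Iars, the enzymes for tyrosine, leucine and isoleucine, differed by 0.56, 0.50 and 0.50. The enzymes for glutamine, tryptophan and lysine were at -0.05 (Qars), -0.02 (Wars) and -0.01 (Kars). With 1 heart of the 4 left out, 3 to 5 of the 19 had such a p, at medians from 0.33 to 0.37.

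Of 13 amino acid transporters 4 were higher with an unadjusted p under 0.05 and 0 were lower, beside 1.79% and 1.95% of all genes. The median was 0.28, and 12 of 13 had a positive difference, against 53.4% of all genes. Slc7a5 and Slc3a2 form the LAT1 exchanger for large neutral amino acids. Slc7a5 read 6.27 and 6.20 in WT and 6.89 and 6.91 in KO, and Slc3a2 read 7.38 and 7.61 in WT and 8.11 and 8.13 in KO. Both subunits were higher in both KO hearts, by 0.67 ± 0.22 and 0.62 ± 0.19. Slc38a1, a glutamine carrier, differed by 0.61 ± 0.20. Without replicate 1 of WT 1 of the 13 had such a p, and without replicate 2 of WT 2 did.

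Asns was the 1 gene that rose among 9 enzymes of asparagine and other amino acids. The median of these was -0.09, and Gpt2, a mitochondrial alanine aminotransferase, read 7.69 and 7.81 in WT and 7.42 and 7.42 in KO (unadjusted p = 0.0313).

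**Figure D4:**
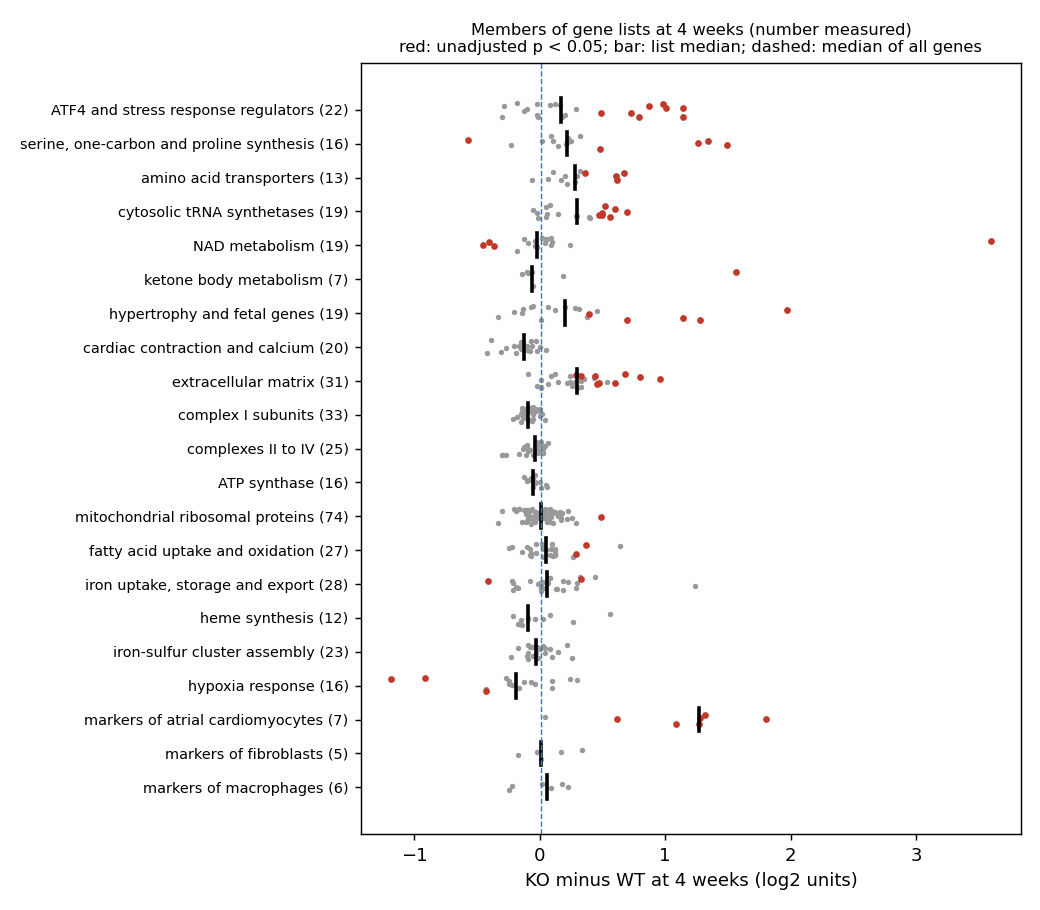
KO minus WT log2 differences at 4 weeks of the members of each gene list, 1 point per measured gene, red for an unadjusted p under 0.05, with a bar at the list's median and a dashed line at that of all genes. The synthetases, transporters and matrix genes lie mostly to the right of 0 with medians of 0.30, 0.28 and 0.30, and complex I lies close to 0 at -0.09.

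Nmrk2 was the 1 gene that rose among 19 measured genes of NAD metabolism. Another 3 were lower with an unadjusted p under 0.05, beside 1.95% of all genes, at a list median of -0.02. Nampt, the enzyme that recycles nicotinamide, read 9.83 and 9.69 in WT and 9.28 and 9.35 in KO. Its KO hearts were both below WT, by -0.45 ± 0.14, and 2 further probe sets gave -0.54 each. Nadk2, the mitochondrial NAD kinase, differed by -0.36 ± 0.12 and Sirt1, an NAD-dependent deacetylase, by -0.40 ± 0.14. Nmrk1, the widely expressed paralog of Nmrk2, read 3.92 and 3.82 in WT and 3.89 and 3.77 in KO. Without replicate 2 of WT, 1 of the 19 was lower with such a p.

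Bdh1 was likewise the 1 gene that rose among 7 measured genes of ketone body metabolism. Oxct1, which activates acetoacetate for oxidation, read 12.28 and 12.27 in WT and 12.21 and 12.06 in KO, and the other 5 genes ranged from -0.10 to 0.19.

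Genes of hypertrophy and the fetal heart were higher in part, and the atrial markers given above moved with them. Of 19 measured, 1 rose (Nppb), and 5 in all were higher with an unadjusted p under 0.05 and 0 lower. The shares of all genes were 1.79% and 1.95%, and the list's median was 0.20. Nppa, atrial natriuretic peptide, read 11.82 and 12.11 in WT and 12.86 and 13.63 in KO. Its highest heart was replicate 2 of KO, the heart with the highest atrial score. The difference was 1.28 ± 0.24, and 0.64 with the atrial score as a covariate.

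Acta1, the skeletal alpha-actin that fetal hearts express, read 11.68 and 11.34 in WT and 12.71 and 12.59 in KO. Both KO hearts were above WT, and here the atrial score did not order them. The difference was 1.14 ± 0.22, or 2.21-fold, and 1.32 with the score (adjusted p = 0.532 and 0.742, limma).

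Myh7, the slow myosin heavy chain of the fetal and failing mouse ventricle, read 7.65 and 7.58 in WT and 8.03 and 7.98 in KO. The step was small but larger than the distance within either pair, at 0.39 ± 0.12. Rcan1, which calcineurin induces, differed by 0.70 ± 0.31. Ankrd1 and Ccn2, genes of wall stress and fibrosis, read -0.07 and -0.14, and the list's median was 0.00 with the atrial score. Without replicate 2 of WT 3 of the 19 had an unadjusted p under 0.05.

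Among 31 measured genes of the extracellular matrix, 9 were higher with an unadjusted p under 0.05 and 0 lower, beside 1.79% and 1.95% of all genes. None passed the adjusted test, and 29 had a positive difference, against 53.4% of all genes. The median was 0.30. Cilp, a matrix protein of fibroblasts that binds TGF-beta, read 6.84 and 7.49 in WT and 8.24 and 8.03 in KO. WT hearts were unequal, and both KO hearts lay above them, by 0.96 ± 0.20, or 1.95-fold (adjusted p = 0.541, limma). Thbs4, a thrombospondin, read 6.01 and 6.19 in WT and 6.64 and 6.91 in KO, a difference of 0.68 ± 0.17.

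Postn, periostin of activated fibroblasts, read 9.58 and 9.98 in WT and 10.51 and 10.23 in KO, at 0.60 ± 0.20, and Timp1, an inhibitor of matrix proteases, 6.77 and 6.65 in WT and 7.35 and 7.66 in KO, at 0.80 ± 0.33. The groups did not overlap for either. The fibrillar collagens were at 0.44 ± 0.15 (Col1a2), 0.34 ± 0.21 (Col1a1) and 0.26 ± 0.17 (Col3a1).

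The counts moved with single hearts. An unadjusted p under 0.05 was found for 3 of the 31 without replicate 1 of WT (median 0.15) and for 5 without replicate 2 of KO (0.18). With the atrial score as a covariate 4 were higher and 2 lower, and the median was -0.08. Fibroblast markers had a median of 0.01 and macrophage markers 0.06, and 0 of 5 and 0 of 6 had such a p.

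Of 18 ligands of the TGF-beta family and cytokines, 2 were higher with an unadjusted p under 0.05, beside 1.79% of all genes. None of the 18 had such a p without replicate 1 of WT, without replicate 2 of KO or with the atrial score. Tgfb2 read 5.68 and 6.14 in WT and 6.30 and 6.74 in KO, and Bmp10, which in the adult is an atrial gene, 6.17 and 6.25 in WT and 6.64 and 7.02 in KO. Mesothelial markers were also among the higher genes, with 2 of 4 at an unadjusted p under 0.05 (Upk3b 0.80 ± 0.33 and Msln 0.54 ± 0.15), 0 of 4 without replicate 2 of KO and 1 of 4 without replicate 1 of WT, and their part in the matrix values was not tested.

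Mitochondrial transcripts lay close to WT levels. None of 33 complex I subunits, 25 subunits of complexes II to IV or 16 of ATP synthase had an unadjusted p under 0.05, and the medians were -0.09, -0.04 and -0.05. Within complex I the differences ran from -0.21 to 0.04, and 29 of 33 were negative. Both KO hearts lay below both WT hearts for 25 of the 33 and above them for 0, against 3176 and 3535 of all 18193 genes. Sdhb, the iron-sulfur subunit of complex II, read 13.27 and 13.25 in WT and 13.20 and 13.29 in KO, so the groups overlapped.

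Of 74 mitochondrial ribosomal proteins 1 had such a p, Mrps18b, at 0.49 ± 0.12, and the median was 0.01. The share of all genes higher with such a p was 1.79%. Mitochondrial chaperones and proteases (15, median 0.08) and biogenesis regulators (15, median -0.07) held none. Lonp1, the matrix protease, differed by 0.33 ± 0.19, and Ppargc1a, the coactivator that drives biogenesis, by 0.09 ± 0.27. The tricarboxylic acid cycle and pyruvate dehydrogenase genes had 0 of 21, at a median of -0.11, and 1 of the 21 differences was positive, against 53.4% of all genes. Both KO hearts lay below both WT hearts for 15 of the 21 and above them for 1, against 3176 and 3535 of all 18193 genes.

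Fatty acid genes had 2 of 27 higher with such a p, beside 1.79% of all genes. They were Slc25a20, the carnitine carrier, and Acot2, a matrix thioesterase, at 0.29 ± 0.12 and 0.37 ± 0.16. None of the 27 had such a p without replicate 1 of WT, without replicate 1 of KO, with averaged probe sets, with either filter on dim genes, with eBayes trend or with the atrial score. In glycolysis 1 of 16 was lower, Ldha, lactate dehydrogenase, at -0.34 ± 0.13, and 0 were without either WT heart or replicate 1 of KO. Contraction and calcium genes had 0 of 20, at a median of -0.12. For glycolysis and for this list the share of all genes lower with such a p was 1.95%. Of the 20 differences 18 were negative, against 8476 of all 18193 genes. Both KO hearts lay below both WT hearts for 14 of the 20 and above them for 0, against 3176 and 3535 of all genes.

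Iron genes also lay near WT levels at this age. Of 28 genes that take up, store or export iron, 1 was higher and 1 lower with an unadjusted p under 0.05. The shares of all genes were 1.79% and 1.95%. The first was Slc25a28, mitoferrin 2, at 0.33 ± 0.12, and the second Bmp6 at -0.41 ± 0.17. Neither count held without either WT heart or without replicate 2 of KO, where 0 of 28 had such a p, and 4 were higher without replicate 1 of KO. Tfrc, the transferrin receptor, read 10.98 and 11.07 in WT and 11.45 and 11.25 in KO. Both KO hearts were above WT, and the difference was 0.32 ± 0.17 (unadjusted p = 0.0899).

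Hamp, hepcidin, had the largest difference of the list, 1.24 ± 0.65, which came from a single heart, with 7.21 and 8.15 in WT and 7.63 and 10.20 in KO. That heart, replicate 2 of KO, also had the highest mean log2 of the liver markers, at 10.18. The means of the other hearts were 8.03 and 9.53 in WT and 6.05 in KO. The part of liver RNA in the Hamp value was not tested. Heme synthesis had 0 of 12 and iron-sulfur cluster assembly 0 of 23, at medians of -0.09 and -0.03. Of 28 iron-sulfur proteins 1 was lower, beside 1.95% of all genes, and it was Xdh, xanthine dehydrogenase, at -0.46 ± 0.13. Hmox1, heme oxygenase 1, read 6.39 and 6.30 in WT and 6.35 and 6.72 in KO, with overlapping groups. Of 24 NRF2 targets and antioxidants 1 was higher, beside 1.79% of all genes, and it was Srxn1, sulfiredoxin, at 0.52 ± 0.18. Further Srxn1 probe sets gave 0.42, 0.01 and 0.02. With averaged probe sets or with the atrial score 0 of the 24 were higher.

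No gene fell by the adjusted test, but several were lower in both KO hearts. Fkbp5, a co-chaperone of the glucocorticoid receptor, read 8.52 and 8.37 in WT and 7.65 and 7.52 in KO, a difference of -0.86 ± 0.13 (adjusted p = 0.128, limma). Its further probe sets gave -0.59 and 0.32. Egln3, a prolyl hydroxylase that marks hypoxia-inducible factors for decay, read 8.22 and 8.61 in WT and 7.13 and 7.33 in KO, at -1.18 ± 0.19 (adjusted p = 0.198, limma) and -1.12 in another probe set.

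Cited2, a coregulator that competes with hypoxia-inducible factor for p300, read 7.70 and 7.97 in WT and 6.67 and 6.93 in KO, at -1.03 ± 0.24. The hypoxia list held 3 of 16 lower and 0 higher, beside 1.95% and 1.79% of all genes, at a median of -0.19. It held 6 of 16 lower where a gene's probe sets were averaged and 2 of 16 with eBayes trend. With 1 heart of the 4 left out, the list's median ran from -0.19 to -0.15. Of the atrophy ligases, Trim63 (MuRF1) read 10.40 and 10.27 in WT and 9.83 and 9.85 in KO, at -0.50 ± 0.14, and Fbxo32 (atrogin-1) 9.73 and 9.51 in WT and 8.70 and 9.38 in KO, at -0.57 ± 0.25. For Fbxo32 2 dimmer probe sets gave -0.83 and -1.07, with both KO hearts below both WT hearts. Trim63 and Fbxo32 were the 2 of 7 members with an unadjusted p under 0.05, beside 1.95% of all genes lower with such a p. Without either WT heart or replicate 1 of KO, 1 of the 7 was lower with such a p, and without replicate 2 of KO 3 were.

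The lowest difference among the named genes was that of Prune2, at -2.60 ± 0.96, and it came from a single heart. It read 9.12 and 9.09 in WT and 4.51 and 8.49 in KO, and 3 further probe sets gave 0.89, 0.05 and 0.53. Kap, a kidney androgen-regulated gene, read 6.90 and 7.90 in WT and 5.96 and 5.61 in KO.

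Of the largest differences in the other direction, Lgals3, the lectin galectin 3, read 5.78 and 5.88 in WT and 7.37 and 8.33 in KO, at 2.03 ± 0.26 (adjusted p = 0.0579, limma). KO hearts were unequal, and both lay above WT. Lgals3 passed the adjusted test with either filter on dim genes, quantile normalization, eBayes trend or array weights, and without replicate 1 of KO or either 10-week WT heart, at adjusted p from 0.00588 to 0.045 (limma). Bex1 read 6.06 and 6.09 in WT and 8.34 and 8.24 in KO, at 2.22 ± 0.38 (adjusted p = 0.276, limma), with tight pairs. It passed with only the 4-week arrays in the fit (adjusted p = 0.000312, limma), with array weights and without either 10-week KO heart. Grk5, a kinase of G protein-coupled receptors, read 6.17 and 3.48 in WT and 7.47 and 6.79 in KO, so its difference of 2.30 ± 0.69 rested largely on replicate 2 of WT, and another probe set gave 1.02. Mlana and Mybphl, which differed by 1.68 ± 0.41 and 1.58 ± 0.60, were highest in replicate 2 of KO, as the atrial markers were.

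Of 29 cell cycle genes 5 had an unadjusted p under 0.05, all higher in KO, beside 1.79% of all genes, none past the adjusted test, at a median of 0.16. Top2a, a topoisomerase of dividing cells, read 6.06 and 6.22 in WT and 6.74 and 6.77 in KO, a difference of 0.62 ± 0.13, and further probe sets gave 0.22 and -0.01. Of the 29, 2 had such a p without replicate 1 of WT.

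Of 23 immediate early genes 5 were higher and 1 lower with such a p, beside 1.79% and 1.95% of all genes, and none passed the adjusted test. Egr1 read 5.97 and 6.17 in WT and 7.01 and 7.52 in KO, at 1.19 ± 0.31, and Myc read 5.35 and 5.47 in WT and 5.93 and 5.89 in KO, at 0.50 ± 0.14. Their KO hearts stood above WT in both. Without replicate 2 of WT 3 of the 23 were higher with such a p. Clock genes had 3 of 17 lower, Bhlhe40 at -0.37 ± 0.15, Nr1d2 at -0.36 ± 0.12 and Tef at -0.33 ± 0.14, and 1 of 17 without either WT heart or replicate 1 of KO. With the atrial score as a covariate 3 of 19 synthetases, 2 of 29 cell cycle genes and 2 of 23 immediate early genes were higher with an unadjusted p under 0.05, and none of the 4 mesothelial markers was (median 0.05). In that fit 0 of the 19 NAD genes were lower with such a p, and of the p53 targets described next 0 were higher and 1 lower.

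Among the other lists, p53 targets had 2 of 14 higher and 3 lower, beside 1.79% and 1.95% of all genes. Phlda3 was at 0.58 ± 0.17 and Trp53inp1 at -0.74 ± 0.20. Without replicate 1 of WT none of the 14 was higher, and without replicate 1 of KO 1 was lower. Interferon genes (17) and autophagy and lysosome genes (18) had none. Endoplasmic reticulum chaperones had 1 of 17, Herpud1, lower at -0.52 ± 0.22, and channels had Kcne1 higher and Kcnd3 lower among 15. Further probe sets gave 0.33 for Kcne1 and -0.06, 0.01 and -0.07 for Kcnd3. Markers of endothelial cells (5) and smooth muscle (4) had none with such a p.

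How the 4-week hearts relate to older ones was read from the 10-week arrays, which share no array with the 4-week comparison but share the estimate of the spread. At 10 weeks 945 genes rose in KO (5.19%) and 1254 fell (6.89%). Of the 325 genes higher at 4 weeks with an unadjusted p under 0.05, 119 rose at 10 weeks (36.6% of the 325 and 12.6% of the 945), and 5 fell. Of the 354 lower genes, 142 fell at 10 weeks (40.1% of the 354 and 11.3% of the 1254), and 5 rose. Across genes the differences at the ages had a Pearson r of 0.35 and a Spearman rho of 0.23, given as a description, since genes are not independent.

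Read the other way, genes that rose at 10 weeks had a positive difference at 4 weeks in 70.9% of cases, against 53.4% of all genes, at a median of 0.10. Genes that fell at 10 weeks had a negative one in 77.5%, at a median of -0.12. The KO effect differed between the ages at an adjusted p under 0.05 for 379 genes (2.08%).

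Nmrk2 and Asns had larger effects at 10 weeks, 5.57 and 3.91, and the differences from 4 weeks did not pass the test (adjusted p = 0.0723 and 0.0904, limma). At 10 weeks Asns read 6.32 and 6.72 in WT and 10.25 and 10.60 in KO, and Nmrk2 6.97 and 7.84 in WT and 12.86 and 13.09 in KO. WT levels were thus near those of 4-week WT hearts, and KO levels were above those of 4-week KO hearts.

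Cpxm2, Nppb and Bdh1 had another pattern, in which WT hearts themselves were higher at 10 weeks. Bdh1 read 9.42 and 9.38 in 10-week WT against 6.80 and 6.53 in 4-week WT, with 4-week KO at 8.04 and 8.40 in between. Cpxm2 read 7.33 and 7.16 in 10-week WT, close above the 7.01 and 7.0 of 4-week KO, and Nppb read 12 and 12.16, which overlaps the 12.30 and 12.15 of 4-week KO. The comparisons share the 4-week WT arrays, and age, litter and processing day cannot be told apart. The atrial score of WT hearts was also higher at 10 weeks, at 0.14 and 0.78 against -0.91 and -0.36 at 4 weeks. Its part in these WT levels was not tested. The KO effect of Cpxm2 was smaller at 10 weeks, 0.76 against 2.42 (difference -1.66, adjusted p = 0.0467, limma), and those of Nppb and Bdh1 were 1.65 and 0.73, with differences that did not pass (adjusted p = 0.689 and 0.102).

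**Figure D5:**
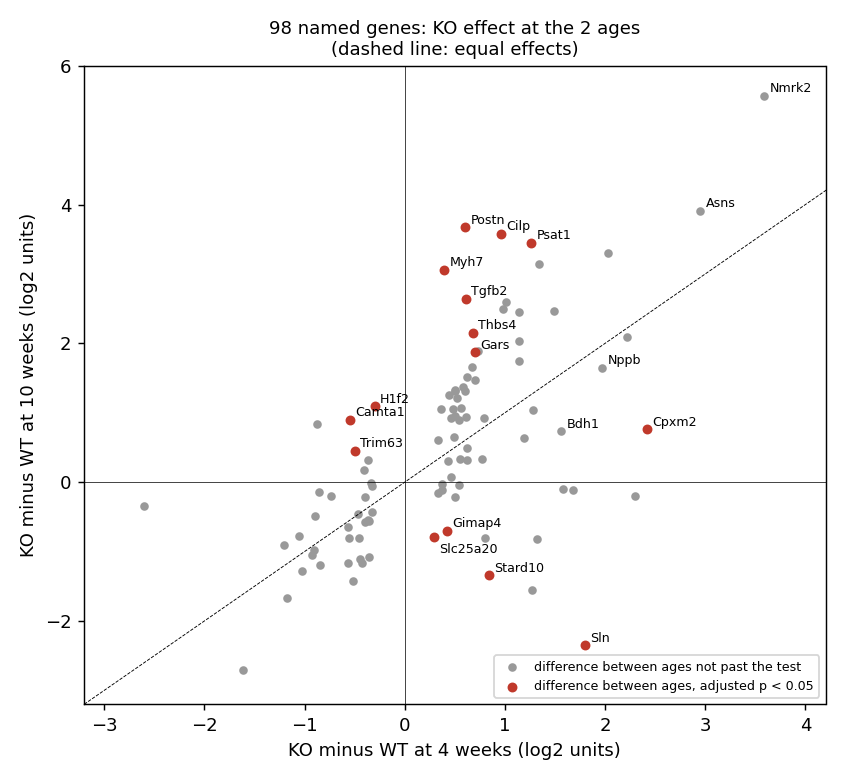
KO minus WT log2 differences at 4 weeks on the horizontal axis and at 10 weeks on the vertical axis, 1 point for each of the 98 genes named by rule, with a dashed line of equal effects and red for a difference between the ages past the test. Asns (2.95 and 3.91) and Nmrk2 (3.59 and 5.57) lie far out at both ages, Postn (0.60 and 3.67) and Myh7 (0.39 and 3.06) mainly at 10 weeks, and Sln (1.80 and -2.35) changes sign.

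Several lists with a median above that of all genes at 4 weeks had a larger one at 10 weeks, where the median over all genes was 0.00. The median of the synthetases was 0.30 at 4 weeks and 0.95 at 10 weeks, and 13 of 19 rose at the later age, beside 5.19% of all genes. Serine, one-carbon and proline genes went from 0.22 to 0.68, transporters from 0.28 to 0.56 and stress regulators from 0.17 to 0.58. The KO effects of Gars and Psat1 were larger at 10 weeks, by 1.18 and 2.19 (adjusted p = 0.0229 and 0.0248, limma).

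The matrix list went from 0.30 to 1.46, with 26 of 31 genes risen at 10 weeks, beside 5.19% of all genes. Postn and Cilp had effects larger by 3.07 and 2.62 (adjusted p = 0.00154 and 0.00314, limma). Hypertrophy genes went from 0.20 to 1.47, and Myh7 was larger by 2.67 (adjusted p = 0.000814, limma).

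Complex I went from -0.09 to -0.79, with 26 of 33 subunits fallen at 10 weeks and 0 of 33 at 4 weeks, beside 6.89% and 0% of all genes. Complexes II to IV went from -0.04 to -0.52 and mitochondrial ribosomal proteins from 0.01 to -0.65. Heme synthesis went from -0.09 to -0.72. Differences between the ages were tested for single genes only, and not for lists.

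Atrial markers did the reverse, with a median of 1.27 at 4 weeks and -0.34 at 10 weeks, and the atrial score of 10-week hearts was 0.14 and 0.78 in WT and -0.01 and -0.40 in KO. There were 11 genes with effects of opposite sign, an unadjusted p under 0.05 at 4 weeks and an adjusted p under 0.05 for the difference between the ages. Sln had the largest such difference, with effects of 1.80 and -2.35. Stard10 (0.84 and -1.34), Camta1 (-0.55 and 0.90), H1f2 (-0.30 and 1.09) and Gimap4 (0.42 and -0.70) followed. The part that the atrial share had in these values was not tested for each gene.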

How the data were processed

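Total RNA of each heart was extracted with TRIzol and hybridised to an Affymetrix mouse array, per the labels' protocols. The deposited values are linear probe set intensities from the authors, and the submitters' processing notes name GCOS 1.3 and RMA as their tools. RMA corrects background, equalises the arrays' distributions and summarises probes, so a shift shared by most genes would not show. Log2 was taken here, with no filter. Of 45101 probe sets, 64 controls were left out. Platform annotation named 1 gene for 34945 probe sets, several for 932 and none for 9160, and RefSeq symbols were matched by Entrez ID for 34741. The brightest probe set stood for each of 18193 genes, 9010 of which had more than 1.

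The fit in limma 3.58.1 under R 4.3.3 took all 8 arrays, gave each group its own mean and moderated the variances (eBayes), leaving 4 residual and 9.33 total degrees of freedom, and a median SE of 0.145. The code was tested on simulated data. Tests were two-sided, with Benjamini-Hochberg adjustment over all genes, and "rose" and "fell" mean an adjusted p under 0.05. The 49 gene lists (799 genes, 741 measured) were described by counts and medians. Members, lists and tests were chosen with earlier results of these data known.

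The 98 genes named by rule were the genes called, the 12 largest rises and falls with an unadjusted p under 0.05 and no overlap, up to 5 members per list with the smallest p, and the 5 largest opposite effects between ages. Other list members, such as Alb, Hamp and Fgf21, were picked with their values in view. Alternatives comprised 3 ways of using probe sets, 2 filters on dim genes, 2 normalizations, eBayes with trend, array weights, the 4-week arrays alone, a replicate block, an atrial score and each array left out. The values of the targeted gene are not reported here.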

Additional observations from a re-analysis of the deposited data

Results flagged for a closer look

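The KO effect differed between 4 and 10 weeks, by the test of that difference in limma (adjusted p under 0.05), for 15 of the named genes. Values are the 10-week minus the 4-week KO effect on the log2 scale. Matrix and growth factor genes had the larger effect at 10 weeks, Postn by 3.07, Cilp by 2.62, Tgfb2 by 2.03 and Thbs4 by 1.47. The same was seen for the fetal myosin Myh7 (2.67), the serine synthesis gene Psat1 (2.19) and the synthetase Gars (1.18). The difference was also positive for the histone gene H1f2 (1.39), Camta1 (1.45) and the atrophy ligase Trim63 (0.95). These were lower in KO at 4 weeks, by effects of -0.30, -0.55 and -0.50. The effect was lower at 10 weeks for Sln (-4.15), Stard10 (-2.18), Cpxm2 (-1.66), Gimap4 (-1.12) and the carnitine carrier Slc25a20 (-1.08). Age, litter and processing day cannot be told apart in these differences. Groups of 2 hearts allow no test for an outlying sample.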

How the results depend on the processing

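The count of 5 higher genes was 5 to 7, with 0 lower genes, under 9 alternatives that changed the probe sets, the filter, the normalization, the moderation or the block. It was 10 with array weights (and 4 lower), 13 with only the 4-week arrays and 0 with the atrial score as a covariate. With each array left out in turn it ran from 2 to 9, and the count of lower genes from 0 to 3. Asns was called under 19 of 20 alternatives, Nppb under 17, and Bdh1, Cpxm2 and Nmrk2 under 16 each, with the losses given beside each gene. All 5 kept their direction. Over the 98 named genes, 3 turned their sign with the atrial score, Mybphl (-0.20), Myl7 (-0.15) and Upk3b (-0.02). Over all lists and alternatives, 943 medians stayed within the spread between replicates and 75 did not. The 943 include alternatives that leave a 4-week difference as it is and so could not move a median. These are probe sets tested singly, eBayes trend, array weights, the 4-week arrays alone, the replicate block and each 10-week array left out. The labels do not say that replicate numbers pair the mice. Same-numbered hearts deviated together, with a correlation of 0.302 at 4 weeks and 0.23 at 10 weeks over 2 pairs an age, and a replicate block gave 6 higher genes, with Lgals3 added. With 2 arrays per group, precision is limited.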

Other observations

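Genes that glucocorticoids raise were mostly on the lower side in 4-week KO hearts. The list was drawn up after Fkbp5 and Arrdc2 had been seen among the lowest genes, so its counts describe these arrays and no test was made. Of 22 measured genes 0 were higher and 6 lower with an unadjusted p under 0.05, beside 1.79% and 1.95% of all genes. The list's median was -0.27 against 0.01 over all genes. Arrdc2, an arrestin-domain protein, read 5.30 and 5.71 in WT and 4.46 and 4.14 in KO, and Fam107a 8.27 and 8.0 in WT and 6.85 and 7.30 in KO. In both, the KO hearts lay below both WT hearts. Without replicate 1 of KO 4 of the 22 were lower with such a p, and with the atrial score as a covariate 11 were.

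A list of genes linked to FOXO transcription factors, also drawn up after values were seen, had 0 of 22 higher and 9 lower. The shares of all genes were 1.79% and 1.95%, and the list's median was -0.26. Pik3ip1, an inhibitor of PI3 kinase, read 8.62 and 8.53 in WT and 7.44 and 7.85 in KO, and Sesn1, a sestrin, 10.23 and 10.11 in WT and 9.52 and 9.70 in KO. Sesn2, a sestrin on the ATF4 list, read 5.89 and 5.48 in WT and 6.21 and 6.15 in KO, higher where Sesn1 was lower. With 1 heart of the 4 left out, 7 to 10 of the 22 were lower with such a p. At 10 weeks the medians of these lists were -0.39 and -0.22.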
